A study of Mus musculus with 9 samples.

Results

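The genes described here encode the enzymes that make microRNAs and the Argonaute proteins that use them. They were the 9 rows whose symbol was Ago1, Ago2, Ago3, Ago4, Dicer1, Drosha, Dgcr8, Xpo5 or Tarbp2, of 22322 genes listed in each full table of the authors. The rule used gene names alone, and all 9 passed the filter on low counts, Ago4 only through the sh-ctrl and sh-Lin41 groups described below. RNA-seq had been done on 9 libraries of mouse R1 cells, an established embryonic stem cell line, kept for 6 days in suspension without the cytokine LIF so that they formed the aggregates called embryoid bodies. The groups, of 3 libraries each and all at day 6, were a control hairpin in cells labelled wild type (sh-ctrl), one that targets Pfkp (sh-Pfkp, labelled as its knockdown) and one that targets Lin41, the protein of the Trim71 gene (sh-Lin41, likewise). With 1 hairpin named per target and no rescue, what a hairpin or its cell population does by itself cannot be told apart from the knockdown. Separate cultures are not stated for the replicates, and the p-values therefore cover the spread among these libraries alone, which may be technical. The series title names Pfkp, a phosphofructokinase of glycolysis, as a kinase that acts on Lin41.

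MicroRNAs are cut from long nuclear transcripts by the Microprocessor, in which Drosha is the nuclease and Dgcr8 its RNA-binding partner. Xpo5, exportin-5, carries the resulting hairpin to the cytoplasm, where Dicer1 cuts it to a short duplex with the help of the double-stranded RNA-binding protein Tarbp2. A strand of the duplex is loaded into an Argonaute protein, which finds partly matching mRNAs and, through GW182 scaffold proteins, brings in the enzymes that shorten their poly(A) tails and remove their caps. Embryonic stem cells need this pathway to leave self-renewal normally, and the mRNA of Lin41 is a classic target of the let-7 microRNA.

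Library totals ran from 15495194 to 20607683 counts. CPM, counts scaled by TMM-adjusted library size, is used to compare a gene between libraries, and the authors' FPKM, which is per length, to compare genes with each other. Each target was lower under its own hairpin: Pfkp was at 0.416-fold of control in sh-Pfkp and Trim71 at 0.594-fold in sh-Lin41, while Trim71 was at 1.31-fold in sh-Pfkp and Pfkp at 0.919-fold in sh-Lin41. All 10 pluripotency markers were above 1 CPM in control, with sums of 5420 to 5510 CPM in sh-ctrl, 4950 to 5020 in sh-Pfkp and 6260 to 6290 in sh-Lin41. Single markers went both ways: 3 rose and 7 fell in sh-Pfkp, and 6 rose and 2 fell in sh-Lin41. The counts of this and the other marker lists stand beside 28.3% of all genes higher and 28.3% lower in sh-Pfkp. In sh-Lin41 these shares of all genes were 26.9% and 27.3%. In sh-Pfkp Sox2, Nanog and Zfp42 rose, while Tdgf1 went from a mean of 984.4 to 551.4 CPM. Under 1 CPM in control were 5 of 6 primitive streak, 3 of 6 endoderm and 2 of 6 neuroectoderm markers. Of the 4 neuroectoderm markers tested 3 rose in sh-Pfkp, and 1 rose and 1 fell in sh-Lin41; the 6 summed to 99 to 102 CPM in sh-ctrl, 128 to 133 in sh-Pfkp and 93.9 to 99.7 in sh-Lin41. Of 8 fibroblast and stromal markers 5 were under 1 CPM in control, and Postn, Lum and Dcn had 0 counts in all sh-ctrl and sh-Lin41 libraries but 47, 10 and 52 counts over the sh-Pfkp libraries. Of the 6 that were tested 4 rose in sh-Pfkp and 2 fell, Pdgfrb from a mean of 8.277 to 2.572 CPM and Thy1 from 3.7 to 1.848. Among those that rose, Col1a2 and Col3a1 had 1 and 2 counts over the sh-ctrl libraries and 10 and 2 over the sh-Lin41 libraries. Such genes passed the filter on low counts only through sh-Pfkp, so their rise was largely fixed in advance. The 8 markers summed to 13.3 to 14.4 CPM in sh-ctrl, 21.9 to 24.7 in sh-Pfkp and 9.17 to 10.8 in sh-Lin41. The part of stromal or neuroectoderm cells, or of the differences in pluripotency markers, in the results for the microRNA genes was not tested. In these bulk samples, fewer cells of a type and less RNA per cell cannot be told apart.

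On the per-length scale the members spanned a wide range. Drosha led with 70.39 ± 2.45 FPKM (SD, n = 3) in sh-ctrl, followed by Xpo5 at 40.16 ± 0.241 and Tarbp2 at 32.4 ± 1.44 FPKM. Ago2, Dgcr8 and Ago1 came next at 28.54 ± 0.0656, 28.41 ± 0.546 and 28.39 ± 0.574 FPKM, and these neighbours overlapped between libraries, so they could not be ordered. Dicer1 followed at 10.21 ± 0.578 FPKM, Ago3 at 3.147 ± 0.419 and Ago4 at 0.16 ± 0.02 FPKM, each apart from its neighbours. In sh-Pfkp no neighbours overlapped, and Dgcr8, at 24.04 ± 0.736 FPKM, came after Ago2 and Ago1. In sh-Lin41 Ago1 (29.94 ± 0.172 FPKM) came directly after Drosha and Xpo5, and Dgcr8 (26.6 ± 2.05), Tarbp2 (25.07 ± 1.43) and Ago2 (23.8 ± 0.18) followed with overlaps between neighbours.

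**Figure D1:**
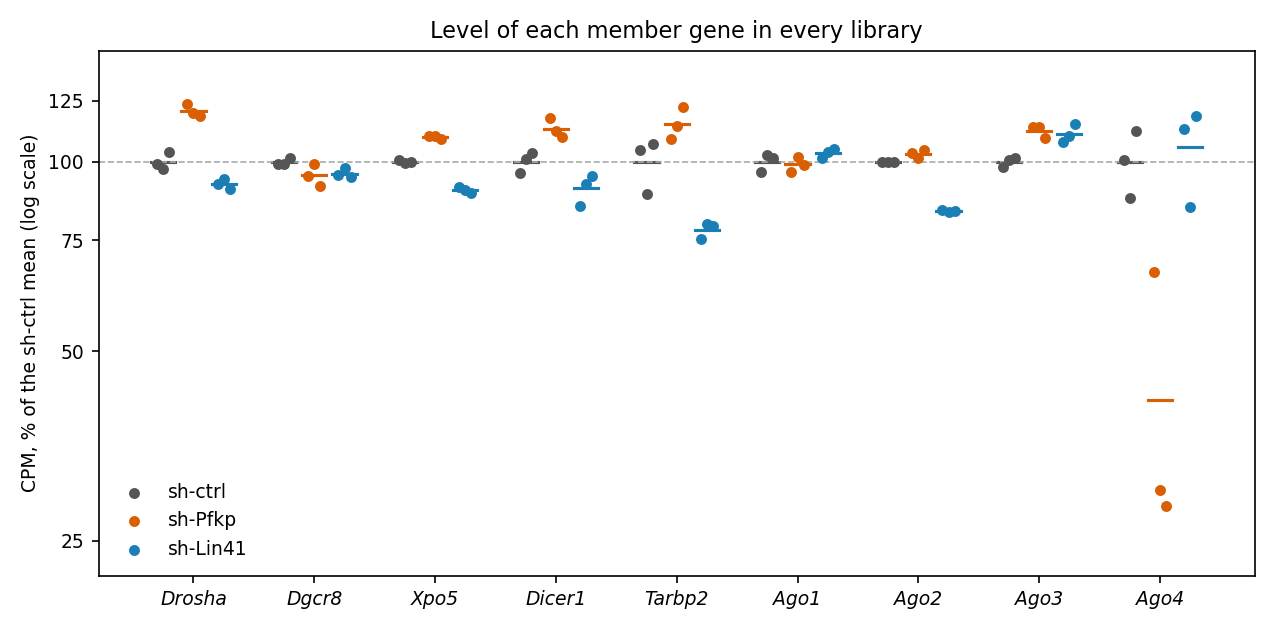
Level of each member gene in every library as a percentage of its sh-ctrl mean, from TMM-scaled CPM on a log axis, with points for libraries, short lines for group means and a dashed line at the control mean. Drosha, Xpo5, Dicer1 and Tarbp2 lie above control in sh-Pfkp and below it in sh-Lin41, Ago2 lies below control in sh-Lin41, and Ago4, at about 1 CPM in control, is the gene farthest from control in sh-Pfkp.

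In the Pfkp knockdown most of the processing genes were modestly higher than in control. Of the 9 members 5 rose (Drosha, Xpo5, Dicer1, Tarbp2 and Ago3), 1 fell (Ago4), and Ago1, Ago2 and Dgcr8 did not pass edgeR's quasi-likelihood test with Benjamini-Hochberg adjustment over 13158 genes. These 6 of 9 stand beside 56.6% of all genes called, so the members' share is near the background; 28.3% of all genes were higher and 28.3% lower. The libraries of the groups did not overlap for 8 members, nor for 61.0% of all genes. The median log2 fold change was 0.13 for the members and -0.005 for all genes tested, and the median absolute change was 0.16 and 0.21. With a minimum of 1.2-fold 2 members were called, Drosha higher and Ago4 lower, beside 34.1% of genes (15.1% higher and 18.9% lower).

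In the Lin41 knockdown most members were lower, against the same control libraries. Here 5 members fell (Ago2, Tarbp2, Xpo5, Dicer1 and Drosha), 1 rose (Ago3), and Ago1, Ago4 and Dgcr8 did not pass the test. The 6 of 9 called stand beside 54.3% of all genes, with 26.9% higher and 27.3% lower, again near the background. Groups did not overlap for 7 members, nor for 59.0% of genes. The median log2 fold change was -0.12 for the members and 0.00428 for all genes. With a minimum of 1.2-fold 1 member was called, Tarbp2, which was lower, beside 31.4% of genes (15.1% lower).

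Both sets of values rest on the same 3 control libraries, so the knockdowns were also compared directly. In sh-Pfkp relative to sh-Lin41, 5 members were higher (Drosha, Xpo5, Dicer1, Tarbp2 and Ago2), 1 was lower (Ago4), and Ago1, Ago3 and Dgcr8 did not pass the test. Of all genes 55.1% were called, 27.4% higher and 27.8% lower. The 6 called members did not overlap between the groups, as was so for 59.8% of genes. All 6 also differed by at least 1.2-fold, beside 31.8% of genes (13.3% higher and 18.5% lower). The median absolute log2 difference was 0.30 for the members and 0.21 for all genes.

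**Figure D2:**
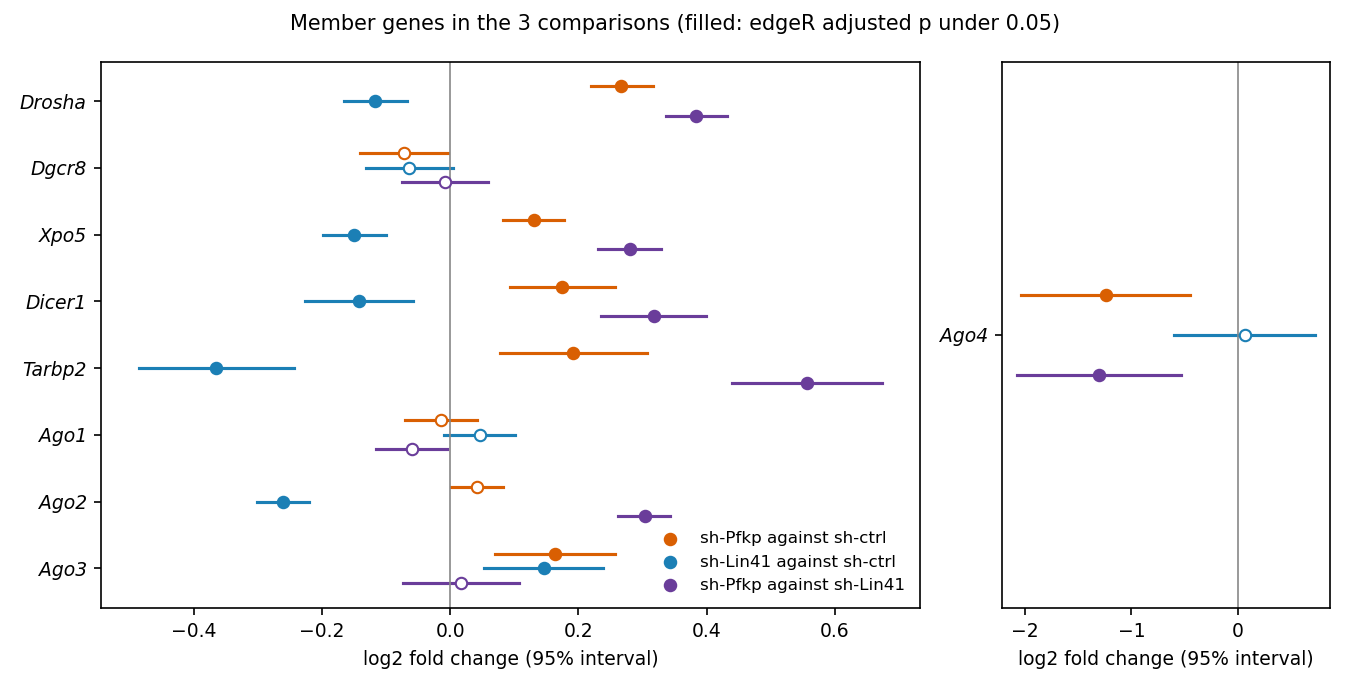
Log2 fold change of each member in the 3 comparisons, with 95% intervals from edgeR's fit and filled points for an adjusted p under 0.05; Ago4, whose intervals are wider, has its own axis. Drosha, Xpo5, Dicer1 and Tarbp2 have intervals above 0 in sh-Pfkp and below 0 in sh-Lin41.

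Drosha, which makes the first cut, had 311.8, 306.1 and 326.1 CPM under the control hairpin, 388.3, 375.9 and 372.3 CPM after Pfkp knockdown and 290.1, 295.6 and 285.1 CPM after Lin41 knockdown. All sh-Pfkp libraries were above, and all sh-Lin41 libraries below, every control library. It rose by 20.4% in sh-Pfkp (log2 0.27, SE 0.0238, edgeR adjusted p = 3.25e-11, n = 3 per group) and fell in sh-Lin41 (log2 -0.12, SE 0.0242, adjusted p = 0.000132). Between the knockdowns the difference was 0.38 (SE 0.0236, edgeR adjusted p = 4.74e-15).

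Dgcr8, the partner of Drosha, was not called in any of the 3 comparisons with all libraries and TMM scaling. It had 104.5, 104.4 and 106.8 CPM under the control hairpin, 99.86, 104.2 and 96.11 CPM after Pfkp knockdown and 100.1, 102.7 and 99.38 CPM after Lin41 knockdown. Every knockdown library lay below every control library, in sh-Pfkp by a margin of under 1 CPM for the nearest ones. The log2 value was -0.07 in sh-Pfkp (95% interval -0.14 to -0.00, edgeR adjusted p = 0.0683) and -0.06 in sh-Lin41 (-0.13 to 0.00, adjusted p = 0.108). Scaled to library size alone, without TMM, the sh-Pfkp value was -0.12 and was called (adjusted p = 0.00281), as it was without sh-Pfkp replicate 2 (-0.10, edgeR adjusted p = 0.0227). The ratio of Drosha to Dgcr8 in FPKM was 2.479 ± 0.134 in sh-ctrl, 3.414 ± 0.181 in sh-Pfkp and 2.445 ± 0.149 in sh-Lin41 (SD, n = 3). All sh-Pfkp ratios were above all control ratios, with a difference of 0.935 (exact permutation test, two-sided, p = 0.1, the smallest p that 3 against 3 allows). The FPKM ratios of sh-Lin41 overlapped control (p = 0.8 by the exact permutation test). In CPM, which does not carry the length estimate described below, the ratio differed from control by 0.8 in sh-Pfkp and by -0.107 in sh-Lin41, and neither group overlapped control (exact permutation p = 0.1 for each).

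Xpo5, the export receptor, had 203.1, 200.9 and 201.5 CPM under the control hairpin, 221.6, 221.9 and 219.1 CPM after Pfkp knockdown and 183.8, 182.2 and 179.9 CPM after Lin41 knockdown. The groups did not overlap, with sh-Pfkp highest and sh-Lin41 lowest. It rose by 9.43% in sh-Pfkp (log2 0.13, SE 0.0237, edgeR adjusted p = 2.33e-05) and fell to 0.901-fold in sh-Lin41 (-0.15, SE 0.0241, adjusted p = 3.71e-06). Between the knockdowns the difference was 0.28 (SE 0.0236).

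Dicer1, the cytoplasmic nuclease, had 76.84, 80.94 and 82.59 CPM under the control hairpin, 94.12, 89.58 and 87.56 CPM after Pfkp knockdown and 68.19, 73.81 and 76.04 CPM after Lin41 knockdown. The groups did not overlap, although the highest sh-Lin41 library came within 1 CPM of the lowest control library. Dicer1 rose in sh-Pfkp (log2 0.18, SE 0.0404, edgeR adjusted p = 0.00044) and fell in sh-Lin41 (-0.14, SE 0.0414, adjusted p = 0.00447). The fall was not called without sh-Lin41 replicate 1 (-0.10, adjusted p = 0.061). On log2(FPKM + 1) with limma-trend neither was called (0.12 with adjusted p = 0.224 and -0.14 with adjusted p = 0.154).

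Tarbp2, the partner of Dicer1, had the largest fall of the 9 members in the Lin41 knockdown. It had 43.88, 37.27 and 44.84 CPM under the control hairpin, 45.59, 47.84 and 51.26 CPM after Pfkp knockdown and 31.64, 33.43 and 33.14 CPM after Lin41 knockdown. Control replicate 2 was the lowest of its group, and the groups did not overlap. The log2 fold change was -0.36 in sh-Lin41 (SE 0.0593, edgeR adjusted p = 4.37e-06), to 0.777-fold, and 0.19 in sh-Pfkp (SE 0.0562, adjusted p = 0.00422). The rise in sh-Pfkp was not called without sh-ctrl replicate 2 (0.12, adjusted p = 0.0609) or on log2(FPKM + 1) (0.15, limma-trend adjusted p = 0.0548). The difference between the knockdowns was 0.56 (SE 0.0573, edgeR adjusted p = 7.33e-10). The ratio of Dicer1 to Tarbp2 in FPKM was 0.3159 ± 0.0311 in sh-ctrl, 0.3105 ± 0.0391 in sh-Pfkp and 0.3657 ± 0.0174 in sh-Lin41, and all groups overlapped.

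The 250 bases before the start sites of these 4 genes are shown because their values moved together across the groups. They come from RefSeq on GRCm38.p6, where 8 of the 9 members had an entry (Ago2 had none); the authors' build was not given in the labels. Capitals mark matches on either strand to the hypoxia response core ACGTG, the NRF1 motif (GCGCA, any 1 base, GCGC), the ETS motif CCGGAAG and the GC box GGGCGG.
Drosha, GRCm38.p6 chr15:12824565-12824814, plus strand: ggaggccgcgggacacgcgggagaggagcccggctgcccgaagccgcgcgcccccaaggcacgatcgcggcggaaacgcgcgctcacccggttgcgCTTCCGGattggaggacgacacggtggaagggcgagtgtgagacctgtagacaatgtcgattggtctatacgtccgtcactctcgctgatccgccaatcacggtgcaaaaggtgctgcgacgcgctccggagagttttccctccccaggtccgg
Xpo5, GRCm38.p6 chr17:46202561-46202810, plus strand: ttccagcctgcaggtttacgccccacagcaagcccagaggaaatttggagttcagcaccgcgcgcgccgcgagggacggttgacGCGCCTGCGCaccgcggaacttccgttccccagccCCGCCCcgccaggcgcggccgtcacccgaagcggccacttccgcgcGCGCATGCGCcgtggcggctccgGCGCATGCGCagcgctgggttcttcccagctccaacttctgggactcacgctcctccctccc
Dicer1, GRCm38.p6 chr12:104751953-104752202, minus strand: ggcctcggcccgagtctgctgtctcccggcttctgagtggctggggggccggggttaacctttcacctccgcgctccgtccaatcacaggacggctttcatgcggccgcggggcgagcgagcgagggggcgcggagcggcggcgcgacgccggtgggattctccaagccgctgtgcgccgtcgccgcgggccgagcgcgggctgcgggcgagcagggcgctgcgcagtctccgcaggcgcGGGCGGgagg
Tarbp2, GRCm38.p6 chr15:102517942-102518191, plus strand: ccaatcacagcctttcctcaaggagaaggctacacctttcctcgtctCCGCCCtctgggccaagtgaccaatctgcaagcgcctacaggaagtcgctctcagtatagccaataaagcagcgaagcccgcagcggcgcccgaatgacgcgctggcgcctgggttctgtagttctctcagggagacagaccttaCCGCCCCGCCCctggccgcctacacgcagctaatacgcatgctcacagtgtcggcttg
All are rich in CpG, with 33 CpG in Drosha, 33 in Xpo5, 39 in Dicer1 and 18 in Tarbp2, where the median of 27025 promoters is 6. This is not particular to these 4 genes. The windows of the other members with an entry held 36 CpG in Dgcr8, 46 in Ago4, 27 in Ago3 and 26 and 28 at the 2 starts of Ago1. They held GC boxes as well, 1 in Dgcr8, 5 in Ago4, 4 in Ago3 and 2 in each Ago1 window, which also had 1 NRF1 match. Xpo5 holds 3 NRF1 matches, a motif in 3.86% of all promoters. Drosha holds 1 ETS match (7.05% of promoters) and no GC box, while Xpo5, Dicer1 and Tarbp2 hold 1, 1 and 3 GC boxes (32.9% of promoters hold one). Among the other members with an entry, Ago3 also holds 1 ETS match. The letters ACGTG, in 16.6% of promoters, are in none of the 4 windows, nor in those of the other members with an entry. A match describes these letters and is not a site of binding.

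Among the Argonautes, Ago2, the one with strong slicing activity, fell in the Lin41 knockdown. It had 389.6, 389.4 and 389.7 CPM under the control hairpin, 401.4, 395.3 and 406.6 CPM after Pfkp knockdown and 326.1, 323.6 and 325.8 CPM after Lin41 knockdown. The sh-Lin41 libraries lay far below all others. The log2 fold change was -0.26 in sh-Lin41 (SE 0.02, edgeR adjusted p = 9.72e-13), to 0.835-fold of control. In sh-Pfkp it was 0.04 (95% interval 0.00 to 0.08, adjusted p = 0.071). That value passed the threshold with RLE size factors (0.05, adjusted p = 0.0453) and without sh-Lin41 replicate 1, sh-Lin41 replicate 3 or sh-Pfkp replicate 2 (adjusted p = 0.0401, 0.046 and 0.0279), and was -0.01 with scaling to library size alone.

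Ago1, a relative with little slicing activity, had 185.4, 196.9 and 194.7 CPM under the control hairpin, 185.3, 195.5 and 190.2 CPM after Pfkp knockdown and 195.1, 199.2 and 201.1 CPM after Lin41 knockdown. The groups overlapped. The log2 value was -0.01 in sh-Pfkp (95% interval -0.07 to 0.04, edgeR adjusted p = 0.68) and 0.05 in sh-Lin41 (-0.01 to 0.10, adjusted p = 0.157). Between the knockdowns it was -0.06 (adjusted p = 0.0588) and was called with library size alone (-0.11, adjusted p = 0.00113) and without sh-Pfkp replicate 2 (-0.07, edgeR adjusted p = 0.0373).

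Ago3 had 41.6, 42.71 and 42.99 CPM under the control hairpin, 48.16, 48.1 and 46.19 CPM after Pfkp knockdown and 45.55, 46.65 and 48.78 CPM after Lin41 knockdown. All knockdown libraries were above all control libraries, and the knockdowns overlapped each other. It was called higher in both knockdowns (log2 0.16, SE 0.046, edgeR adjusted p = 0.00313, and 0.15, SE 0.0457, adjusted p = 0.00764). The difference between the knockdowns was 0.02 (95% interval -0.07 to 0.11). On log2(FPKM + 1) the sh-Pfkp value was -0.00343 and not called (limma-trend adjusted p = 0.982), and between the knockdowns Ago3 was lower in sh-Pfkp (-0.32, adjusted p = 0.0255).

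Ago4 was barely expressed, with 18, 14 and 21 counts in the control libraries, 13, 6 and 5 in sh-Pfkp and 23, 18 and 22 in sh-Lin41. The group means were 1.024 ± 0.125, 0.4276 ± 0.222 and 1.078 ± 0.184 CPM (SD, n = 3), and every sh-Pfkp library was below every other library. Ago4 passed the filter on low counts only through sh-ctrl and sh-Lin41, the groups where it was higher. It fell in sh-Pfkp (log2 -1.24, SE 0.389, edgeR adjusted p = 0.00721), and was called there without that filter too (-1.24, edgeR adjusted p = 0.00613). The ratio of its summed counts to control, scaled for library size, was 0.418 with an exact 95% interval from 0.247 to 0.69, which covers counting error only. On log2(FPKM + 1), which understates changes of low genes, the fall was not called (-0.13, limma-trend adjusted p = 0.071). Ago3, Ago1 and Ago4 lie next to each other in this order on chromosome 4 in RefSeq.

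The make-up of the Argonaute transcripts differed in the Lin41 knockdown. Ago2 made up 48.26, 46.78 and 47.12% of the summed Argonaute FPKM in sh-ctrl, 48.09, 47.95 and 48.91% in sh-Pfkp and 41.28, 40.28 and 41.42% in sh-Lin41. The sh-Lin41 libraries lay below all others, while sh-Pfkp overlapped control. The difference from control was -6.39 percentage points in sh-Lin41 (exact permutation test, two-sided, p = 0.1, the smallest possible) and 0.933 in sh-Pfkp (exact permutation p = 0.3). From CPM, which leaves out the length estimates, these differences were -5.42 and 0.433 points. The summed Argonaute FPKM was 60.24 ± 0.973 in sh-ctrl, 58.83 ± 0.464 in sh-Pfkp and 58.05 ± 0.461 in sh-Lin41 (SD, n = 3). In CPM the sum was 625.3 ± 6.69, 639.4 ± 3.81 and 571.7 ± 4.64, so that sh-Pfkp was above control without overlap in CPM and overlapped it, with a lower mean, in FPKM, while sh-Lin41 was below control without overlap on both scales.

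**Figure D3:**
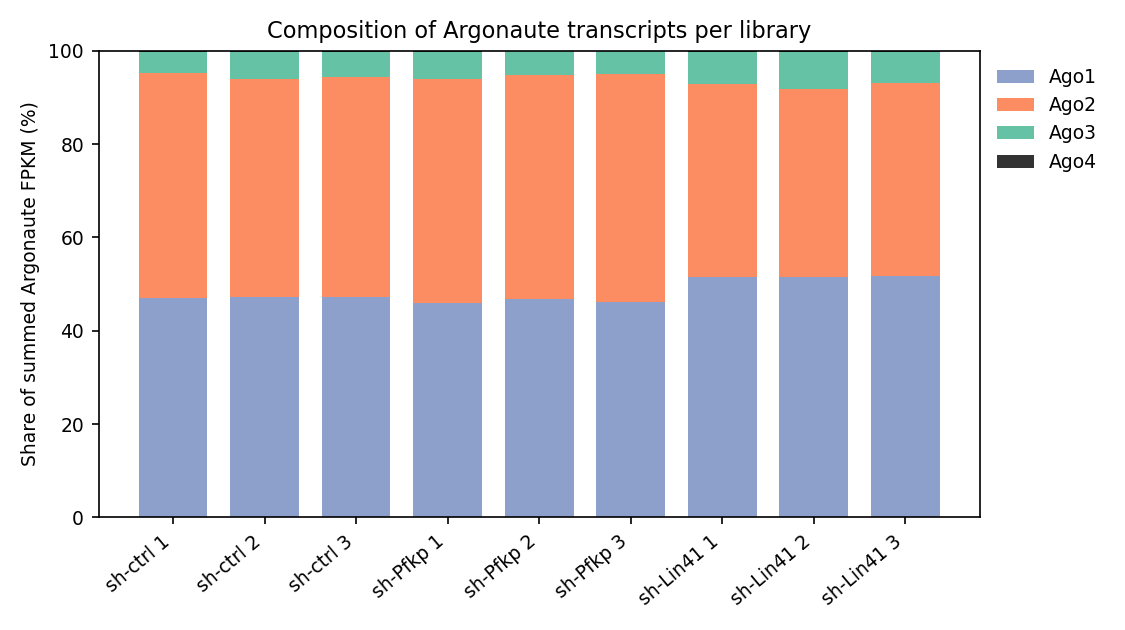
Share of each Argonaute gene in the summed Argonaute FPKM, as stacked bars from 0 to 100% for each of the 9 libraries. Ago2 makes up 40.28 to 41.42% in the sh-Lin41 libraries and 46.78 to 48.91% in the others, and Ago4 is too small to see.

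Argonautes find their targets through the seed of the guide microRNA, bases 2 to 8. The let-7 family and the miR-294 family, the latter abundant in mouse embryonic stem cells, are shown with the seed in capitals because their seed matches can be looked for in the members' own mRNAs. The libraries hold no microRNA measurement.
mmu-let-7a-5p: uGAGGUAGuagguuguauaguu
mmu-miR-98-5p: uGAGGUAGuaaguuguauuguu
mmu-miR-294-3p: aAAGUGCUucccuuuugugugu
mmu-miR-302b-3p: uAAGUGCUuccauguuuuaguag
In RefSeq's table for GRCm38.p6, 11 mature microRNAs carry the let-7 seed and 5 the miR-294 seed. The let-7 seed match CTACCTC was found in GENCODE M21 3′ UTRs of 3 members, 3 times in Ago2, 1 time in Ago3 and 1 time in Tarbp2, and in 8.97% of 20957 protein-coding genes. The stretches are given as DNA with the match in capitals.
Ago2, nearest to the stop codon: cagatgcataaaagCTACCTCt
Ago2, next: aggtggcctctgtcCTACCTCc
Ago2, farthest: tttacaatgtggatCTACCTCa
Ago3: gcacctgccctcacCTACCTCa
Tarbp2: cagaggtgccatctCTACCTCt
Ago2 and Ago3 have long 3′ UTRs, of 11064 and 12742 bases, and of genes with a 3′ UTR of similar length 45.5% of 77 and 53.3% of 45 held the match. Tarbp2 has 334 bases, and 2.96% of 1894 genes of similar length held it. The miR-294 match AGCACTT was found 3 times in Ago3, where 77.8% of genes of similar length held it, and in none of the other 8 members. Of the 3 members with a let-7 match, Ago2 and Tarbp2 fell in sh-Lin41 and Ago3 rose. Of those without one, Drosha, Xpo5 and Dicer1 fell there as well, and Ago1, Ago4 and Dgcr8 did not pass the test. A match does not show that a site is used.

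FPKM and counts gave different values for some members. A gene's count divided by its FPKM and by the library total gives the transcript length that the deposited FPKM implies. For Ago2, Drosha and Xpo5 it was the same in all 9 libraries to within 0.0366%, near 13800, 4519 and 5081 bases, the lengths of GENCODE M21 transcripts of those genes. For Ago3 it ran from 9963 to 15601 bases, for Dgcr8 from 3589 to 4211, for Dicer1 from 7441 to 8574, for Tarbp2 from 1209 to 1380 and for Ago1 from 6609 to 6991.

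**Figure D4:**
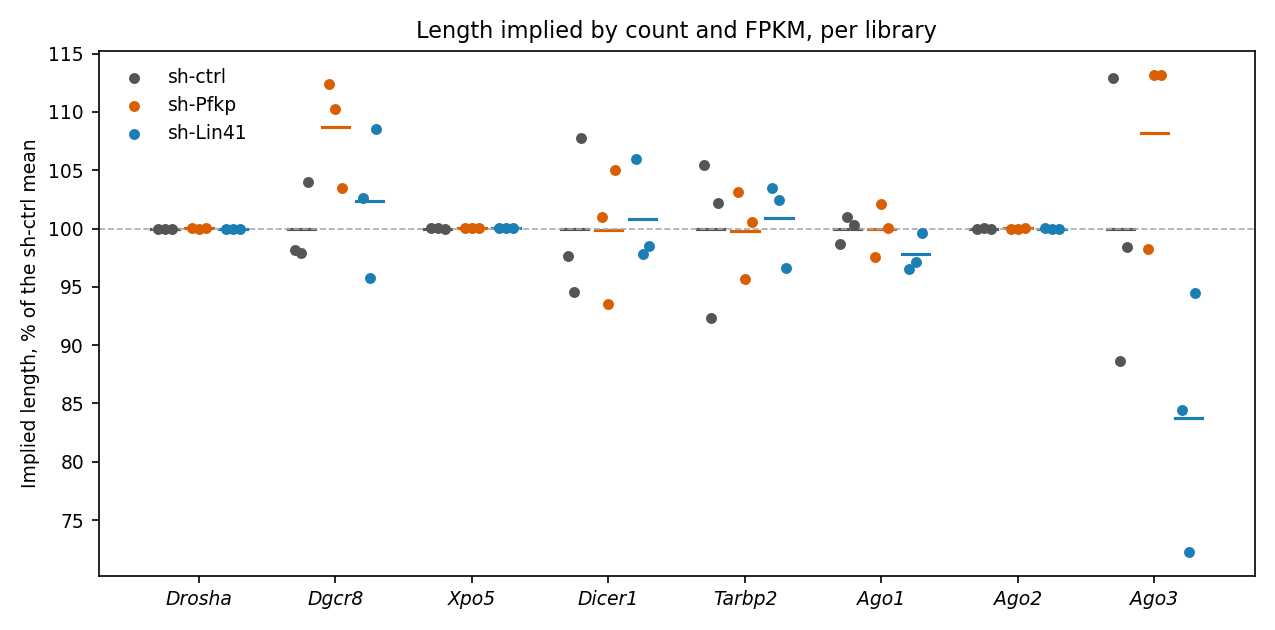
Transcript length implied by count, FPKM and library total for 8 members in each library, as a percentage of the member's sh-ctrl mean, with points for libraries and short lines for group means; Ago4, under 1 FPKM, is left out. Drosha, Xpo5 and Ago2 stay at 100%, whereas Ago3 is spread widely and its mean is lowest in sh-Lin41, and the mean of Dgcr8 is highest in sh-Pfkp.

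The implied length of Ago3 averaged 13782 bases in sh-ctrl, 14914 in sh-Pfkp and 11540 in sh-Lin41, and 0.835% of 8627 genes had a larger shift of means between sh-Lin41 and control. Single libraries overlapped, with 15566, 12213 and 13569 bases in sh-ctrl and 11642, 9963 and 13015 in sh-Lin41. The log2 ratio of mean FPKM of Ago3 was 0.40 in sh-Lin41 and -0.01 in sh-Pfkp, against 0.15 and 0.16 from counts. For Dgcr8 the implied length was 3678, 3668 and 3896 bases in sh-ctrl and 4211, 4132 and 3877 in sh-Pfkp, and these groups overlapped. The authors' deposited table gives Dgcr8 a log2 ratio of mean FPKM of -0.2412 in sh-Pfkp, with an FDR of 0.201. It gives Ago3 a ratio of -0.007662 with an FDR of 0.01238, so the authors' FDR may not be a test of the FPKM ratio beside it. With limma-trend on log2(FPKM + 1), 3 members were called in sh-Pfkp, Drosha and Xpo5 higher and Dgcr8 lower (-0.23, adjusted p = 0.00351), beside 47.9% of genes (19.1% higher and 28.9% lower). Between the knockdowns 8 members were called on that scale, 5 higher and 3 lower (Ago1, Ago3 and Dgcr8), beside 44.8% of genes (18.3% higher and 26.5% lower).

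The rest of the pathway was described by lists of genes named for their roles. Their counts stand beside 28.3% of all genes higher and 28.3% lower in sh-Pfkp, and 26.9% higher and 27.3% lower in sh-Lin41. Of 21 accessory factors of the Microprocessor 10 rose and 3 fell in sh-Pfkp, and 5 rose and 12 fell in sh-Lin41, with median log2 fold changes of 0.06 and -0.13. The splicing factor Srsf3, which binds microRNA precursors beside the cutting site, rose from 298.8 ± 8.24 CPM to 570.4 ± 10.1 in sh-Pfkp and 502.9 ± 7.7 in sh-Lin41 (SD, n = 3; log2 0.93, SE 0.0217, and 0.75, SE 0.0217). The m6A reader Ythdc1 (0.60 and 0.31) and the helicase Ddx5 (0.27 and 0.12) rose in both as well. Of 5 export and dicing cofactors 1 rose and 3 fell in sh-Pfkp, and 3 fell in sh-Lin41. The GTPase Ran, which drives export by Xpo5, fell in both (-0.04 and -0.16). Its exchange factor Rcc1 fell in sh-Lin41 (-0.33), and the nucleoporin Nup153 rose in sh-Pfkp (0.18). Larger falls in sh-Pfkp were those of Prkra (-0.78, SE 0.107) and Adarb1 (-0.67, SE 0.0946). In sh-Lin41 Adarb1 fell (-0.21) and Prkra did not pass the test (-0.09, edgeR adjusted p = 0.436).

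Chaperones that load Argonaute were mostly lower in the Lin41 knockdown. Of 13 such genes 6 rose and 3 fell in sh-Pfkp, and 1 rose and 12 fell in sh-Lin41, with medians of 0.02 and -0.13. Hsp90aa1, an Hsp90 gene, had 4395 ± 44.9 CPM in sh-ctrl, 4755 ± 45.4 in sh-Pfkp and 3840 ± 35.7 in sh-Lin41 (SD, n = 3), with log2 fold changes of 0.11 (SE 0.0125) and -0.20 (SE 0.0125). Hspa8, the constitutive Hsp70, rose in sh-Pfkp (0.21) and fell in sh-Lin41 (-0.04), and its partner Dnaja1 rose in both (0.51 and 0.10).

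All 3 GW182 scaffold genes rose in both knockdowns. Tnrc6a had 108.5 ± 3.56 CPM in sh-ctrl, 156.1 ± 5.91 in sh-Pfkp and 152.4 ± 4.08 in sh-Lin41 (log2 0.52, SE 0.0326, and 0.49, SE 0.0325). Tnrc6b had 82.51 ± 2.61, 101 ± 2.97 and 151.9 ± 2.04 CPM (0.29, SE 0.0342, and 0.88, SE 0.0322). Tnrc6c had 99.2 ± 2.32, 128.4 ± 3.66 and 109.6 ± 0.989 CPM (0.37, SE 0.0317, and 0.14, SE 0.0321). Directly compared, Tnrc6b was lower in sh-Pfkp than in sh-Lin41 (-0.59, edgeR adjusted p = 7.53e-17), Tnrc6c was higher (0.23, adjusted p = 1.58e-07) and Tnrc6a did not pass the test (0.03, adjusted p = 0.359).

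Of 16 genes of the deadenylation machinery 5 rose in sh-Pfkp and the other 11 did not pass the test, where 56.6% of all genes were called, and 3 rose and 8 fell in sh-Lin41, where 54.3% of all genes were called (medians 0.04 and -0.08). The CCR4-NOT subunit gene Cnot2 rose in both (0.46 and 0.09). The poly(A)-binding protein genes Pabpc1 (-0.26) and Pabpc4 (-0.32) fell in sh-Lin41. Of 12 decapping and decay genes 4 rose and 3 fell in sh-Pfkp, and 2 rose and 7 fell in sh-Lin41. The decapping enzyme gene Dcp2 rose in sh-Pfkp (0.22) and fell in sh-Lin41 (-0.26), and the decapping activators Ddx6 (0.21) and Dcp1a (0.32) rose in sh-Pfkp.

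**Figure D5:**
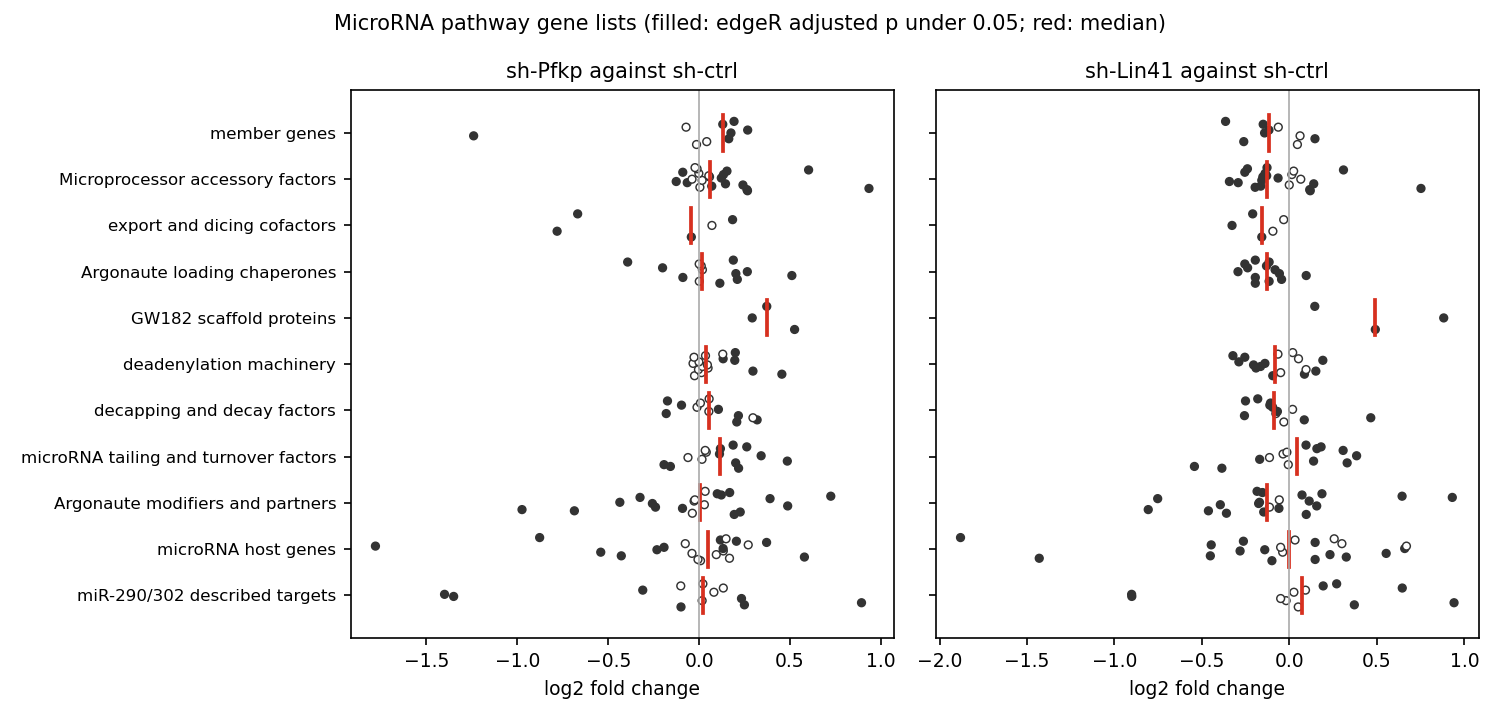
Log2 fold change of each tested gene of the members and of the pathway lists, in sh-Pfkp and in sh-Lin41 against sh-ctrl, with filled points for an edgeR adjusted p under 0.05 and red lines for medians. The 3 GW182 genes lie above 0 in both panels, and 12 of 13 chaperones lie below 0 with filled points in sh-Lin41.

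Of 17 genes listed for tailing and turnover of microRNAs 14 were found in the tables and tested, and of these 8 rose and 2 fell in sh-Pfkp, and 7 rose and 3 fell in sh-Lin41, beside 56.6% and 54.3% of all genes called in either direction. Lin28a, which blocks let-7 processing, had 299.4 ± 3.85 CPM in sh-ctrl, 348.1 ± 5.64 in sh-Pfkp and 229.1 ± 3.08 in sh-Lin41 (0.22, SE 0.0218, and -0.39, SE 0.0225). Unlike Lin28a, Lin28b fell in sh-Pfkp (-0.16, edgeR adjusted p = 0.0179), and it fell in sh-Lin41 as well (-0.54). Tut4 was the other gene that fell in sh-Pfkp (-0.19), and it did not pass the test in sh-Lin41 (-0.01, edgeR adjusted p = 0.869). The uridylyltransferase gene Tut1 rose in both (0.48 and 0.14), and Snd1, which encodes a Tudor-domain nuclease, rose in sh-Lin41 (0.31). Of 20 modifiers and partners of Argonaute 8 rose and 7 fell in sh-Pfkp, and 7 rose and 11 fell in sh-Lin41, beside the same shares of all genes. This list holds Trim71, the target of the sh-Lin41 hairpin, among those that fell there. Zc3h12a, a nuclease that cuts microRNA hairpins, fell from 36.86 ± 2.27 to 29.39 ± 1.58 CPM in sh-Pfkp (-0.32, SE 0.0561) and rose to 70.29 ± 2.28 CPM in sh-Lin41 (0.93, SE 0.0484). The adaptor gene Ajuba rose in both (0.49 and 0.16). Of the germline relatives of the Argonautes, Piwil2 had 15.49 ± 1.01 CPM in sh-ctrl and fell in sh-Lin41 (-0.50, SE 0.0893), and Piwil1, at 0.6496 ± 0.158 CPM in sh-ctrl, rose there (1.13, SE 0.339).

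The genes with the pattern most like that of Ago2 over the 9 libraries, among 8629 genes of at least 10 CPM, were Eif3b, Armc8 and Mybbp1a, with Pearson correlations of log2 CPM of 0.997, 0.995 and 0.995. Eif3b, a translation initiation factor subunit, had means of 514.4, 526 and 413 CPM in sh-ctrl, sh-Pfkp and sh-Lin41. For Dicer1 they were Morc3, Rad50 and Oxa1l, at 0.988, 0.984 and 0.977. These correlations describe libraries that fall into 3 groups and share their depth and scaling.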

How the data were processed

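Total RNA (Trizol) was made into NEBNext Ultra libraries, per the labels' protocols. HISAT2, RSEM, StringTie 1.3.1, fastp 0.18.0 and Bowtie2 2.2.8 are named in the submitters' processing notes, while build, annotation and strand setting were not stated there. Deposited gene counts are whole, per the file headers 1 column a library, and could be rounded RSEM estimates. The authors deposited FPKM values per library, a log2 ratio of mean FPKM, and a p-value with FDR in the same tables. All 9 libraries entered a single edgeR 4.0.16 fit (R 4.3.3): filterByExpr, TMM, quasi-likelihood F test, Benjamini-Hochberg over 13158 genes, threshold 0.05. The SE is the absolute log2 fold change over the root of F. The steps were tested on simulated data for sh-Pfkp against sh-ctrl with 13055 genes tested: 44% of 50 genes changed 1.1-fold, 96% at 1.25-fold and 100% at 1.5-fold or 2-fold were called, and 11 of 12855 unchanged genes. The changed genes were drawn from genes more abundant than Ago4, and all genes were given the same spread. Far fewer genes were changed there than were called in the data, so these rates may not hold for the data and do not cover Ago4. Single values were compared by exact permutation over libraries. Replicate pairs had median chi-square values of 0.661 to 0.769, and none was merged. These values do not show whether the replicates were separate cultures.

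The members and gene lists were chosen with earlier results of these data known. Named genes were the members, both hairpin targets, up to 3 genes of each pathway list with the smallest adjusted p against control, and the 3 genes most like Ago2 and Dicer1. Prkra, Adarb1, Lin28b, Tut4, Lats2 and Rbl2 were named besides, because their changes differed from those of the genes picked by this rule. Transcripts of GENCODE M21 and RefSeq tables gave sequences; 3′ UTRs of similar length were those from 0.8 times the member's length to its inverse. Alternatives were DESeq2 1.42.0, limma-voom and limma-trend (limma 3.58.1; pseudocounts 1 and 0.1 on FPKM), RLE or library-size scaling, no filter, fits of 6 libraries, a 1.2-fold minimum, a replicate block and the omission of each library. The authors' filtered tables were not used.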

Additional observations from a re-analysis of the deposited data

How the results depend on the processing

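The number of members called in sh-Pfkp went from 6 to 2 with a minimum of 1.2-fold and to 3 with limma-trend on log2(FPKM + 1), and in sh-Lin41 from 6 to 1 with a minimum of 1.2-fold. The other alternatives gave 4 to 7 in sh-Pfkp, 5 to 6 in sh-Lin41 and 6 to 9 between the knockdowns. Leaving out 1 library gave 5 to 8, 5 to 6 and 6 to 7. Of 270 values of single members under the other alternatives 232 kept direction and call, and of 243 with 1 library left out 229 did. Ago3 in sh-Pfkp was the only called value whose sign turned in any of these. In sh-Pfkp, Ago2 was -0.00607 with library size alone, -0.00565 with log2(FPKM + 1) and -0.00584 with log2(FPKM + 0.1), and Ago3 was -0.00343 and -0.00346 on these FPKM scales. Between the knockdowns Dgcr8 was 0.000438 with DESeq2 and 0.000644 with RLE size factors, and Ago3 was -0.0289 with library size alone and -0.318 and -0.395 on the FPKM scales. With 1 library left out, Ago1 in sh-Pfkp ran from -0.0373 to 0.0096, Ago4 in sh-Lin41 from -0.0249 to 0.199, and between the knockdowns Ago3 from -0.000376 to 0.0474 and Dgcr8 from -0.0327 to 0.0233. The cause was not tested. Of all genes in sh-Pfkp, 3721 were called higher and 3730 lower; the split was 3018 higher and 4477 lower with library size alone and 2507 higher and 3802 lower with limma-trend on log2(FPKM + 1), neither of which uses TMM. The Ago2 share of Argonaute transcripts differed from control by -5.42 points in sh-Lin41 and 0.433 in sh-Pfkp when taken from CPM, and by -6.69 to -5.95 and 0.631 to 1.37 with 1 library left out.

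Replicate numbers were not taken to pair the libraries. Over 12093 genes of at least 1 CPM, same-numbered libraries had correlations of their deviations from -0.125 to 0.138. Over genes of at least 50 CPM the range was -0.139 to 0.128, and in neither set of genes did any pair of groups have all 3 of its correlations above 0.1. A replicate block gave 6, 6 and 7 members called in the 3 comparisons. It added Ago1 between the knockdowns (-0.06, edgeR adjusted p = 0.038) and changed no other call. At 24 to 63 counts a group, only large differences in Ago4 could be detected.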

Other observations

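Host genes of microRNAs and described microRNA targets stood outside the machinery itself. Of 36 host genes listed 22 were in the tables and 20 were tested. Among these 5 rose and 6 fell in sh-Pfkp, beside 56.6% of all genes called in either direction. In sh-Lin41 6 rose and 8 fell, beside 54.3% of all genes. Mest, the imprinted host of miR-335, rose in both knockdowns, from 301.6 ± 4.8 CPM to 450.5 ± 12 and 377.8 ± 3.1 (SD, n = 3; log2 0.58 and 0.32). Srebf2, the sterol regulator that hosts miR-33, fell in both (-0.43 and -0.45), and Pank3, a pantothenate kinase gene that hosts a miR-103 copy, rose in both (0.13 and 0.66). A host mRNA does not report its microRNA, which was not measured.

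Of 14 genes described as targets of the miR-290 and miR-302 families 12 were tested. Among these 3 rose and 4 fell in sh-Pfkp, and 5 rose and 2 fell in sh-Lin41, with medians of 0.02 and 0.07. These counts stand beside 56.6% and 54.3% of all genes called in either direction. The Nodal antagonist genes Lefty1 (-1.35 and -0.90) and Lefty2 (-1.40 and -0.90) fell in both. Going the other way, Lats2 (0.89 and 0.94, at 2.038 CPM in sh-ctrl) and Rbl2 (0.25 and 0.37) rose in both. Mbd2, a methyl-CpG-binding protein gene, rose in sh-Lin41 (0.64, and 0.13 with edgeR adjusted p = 0.25 in sh-Pfkp).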
